A study of Mus musculus with 22 samples.

Results

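The libraries of mouse embryonic stem cells (ESCs) labelled Chaetocin were compared with those labelled NC, gene by gene. The spread behind the p-values was estimated from all 22 libraries of the series. The libraries compared were found by their column names and are 4 of the 22, namely Chaetocin 1 and 2 and NC 1 and 2. All of the cells were of the E14 line, an established mouse ESC line, and messenger RNA was enriched on oligo-dT beads before sequencing. The other 18 libraries, 2 for each compound, were labelled Bromosporine, CPTH2, DZNep, Garcinol, IOX1, MS023, OICR, UNC0379 and Valproate. NC was the only label that named no compound, and what those cells received in its place was not given. The labels gave neither dose nor exposure time, and every group shared the same line with no genetic change named. Values were read counts per gene that the authors had normalized to the same distribution in every library, so the depth of a library was unknown and a change shared by most genes would not be seen. Of 18487 genes, 17275 were tested, those with 2 or more of the 22 libraries at 10 or above. In such bulk RNA, fewer cells of a type and less RNA per cell cannot be told apart.

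Chaetocin is a fungal metabolite of the epidithiodiketopiperazine class, built around a disulfide bridge. It was first described as an inhibitor of SU(VAR)3-9, the enzyme that trimethylates histone H3 on lysine 9 (H3K9me3), and is also known to act on other lysine methyltransferases and on the thioredoxin system that keeps protein thiols reduced. H3K9me3 marks heterochromatin, the compact and silent part of the genome, and in ESCs it covers many transposable elements, germline genes and clusters of zinc finger genes. The comparison asks which transcripts differ when cells are exposed to such an inhibitor.

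The libraries carried the genes that define ESCs. Pou5f1, the central pluripotency factor, was at 28606 and 29454 in NC and at 28606 and 28606 in Chaetocin, a log2 change of -0.02 (SE 0.09, limma adjusted p = 0.939). Of 24 pluripotency genes tested, 0 were called (0.203% over all genes tested), and their median log2 change was -0.01. Suv39h1, which encodes the enzyme first named as the target, was at 832 and 721 in NC and at 804 and 783 in Chaetocin (log2 change 0.03, adjusted p = 0.918, limma). Suv39h2, its paralog, was at 1117 and 1305 in NC and at 1145 and 1034 in Chaetocin (-0.15, adjusted p = 0.483, limma). An inhibitor acts on the protein, so transcript levels do not check the labels, and no other measure of exposure was at hand.

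With the library number (1 or 2) as a block, 35 genes passed an adjusted p under 0.05 and a fold change over 2, which is 0.203% of the genes tested. Of these, 24 rose (68.6%) and 11 fell. With another scaling, by median ratios, the split was 37 higher (80.4%) and 9 lower. At an unadjusted p under 0.05 there were 3159 genes, and 1264 genes differed over 2-fold with or without passing the test. Of all genes tested, 44.9% were higher in Chaetocin and 53.9% lower, 7.21% and 11.1% at an unadjusted p under 0.05. Without the block, 3 genes were called (Gm37470, Tns1 and a clone-named model of the RP24 library described further on), and a limma fit of these 4 libraries alone with the block called 0, with 1916 genes at an unadjusted p under 0.05. Leaving out a library moved the count to 75 (Chaetocin 1), 17 (Chaetocin 2), 16 (NC 1) or 176 (NC 2). The Chaetocin libraries lay beyond both NC libraries for 35 of the 35 called genes and for 33.9% of all genes tested. Nothing in the labels said that libraries 1 and 2 came from separate cultures, so p-values measure only a spread between libraries. For the 35 calls that spread came from all 22 libraries of the series. In the plot of the changes within each number, called genes sit in the upper right or the lower left, changed the same way in both numbers.

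**Figure D1:**
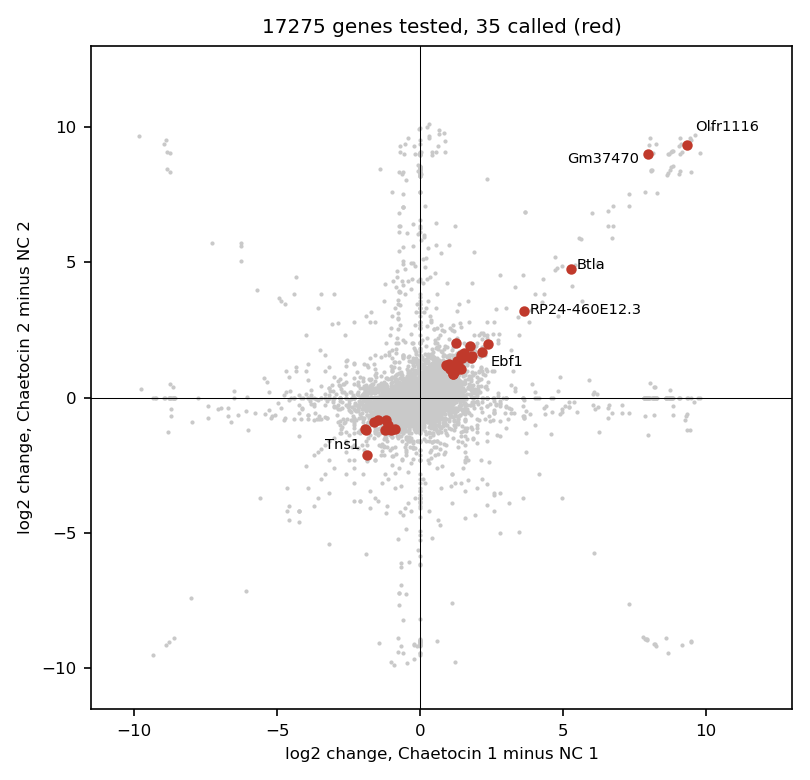
Each point is 1 of 17275 genes, with the log2 change between Chaetocin 1 and NC 1 on the x axis and between Chaetocin 2 and NC 2 on the y axis, both on the log2(value + 1) scale. The 35 called genes (red) lie in the upper right (24) or lower left (11) quadrant, and for genes listed at 0 in a library, such as Gm37470 and Olfr1116, the distance from the origin depends on the added 1.

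The genes that rose included 3 of 22 tested genes in a WNT pathway list that was written after the values had been seen. Over all genes tested 0.139% rose. In the WNT pathway the APC complex destroys beta-catenin until a WNT ligand is bound. Sp5, a zinc finger factor that is a direct target of beta-catenin, was at 376 and 390 in NC and at 1314 and 1137 in Chaetocin, a log2 change of 1.67 (SE 0.25, limma adjusted p = 0.0263). Its levels hardly differed between numbers 1 and 2 of either group. Across the other compounds Sp5 ranged from 229 to 2216 with a median of 570.5, and both Valproate libraries (2216 and 2141) were above Chaetocin. Apc itself, the scaffold that holds the destruction complex, was at 1739 and 1335 in NC and at 4244 and 3449 in Chaetocin (1.33, SE 0.25, limma adjusted p = 0.0496), above the highest library of any other compound (3417). Mcc, a gene named for its mutation in colorectal cancers, was at 165 and 135 in NC and at 367 and 245 in Chaetocin (1.00, SE 0.14, limma adjusted p = 0.0138). Axin2, a feedback target of beta-catenin, was not called, with 766 and 814 in NC and 1420 and 1270 in Chaetocin (0.77, adjusted p = 0.1, limma). The median log2 change of the 22 genes was 0.06, against -0.03 for all genes tested.

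Other genes that rose encode regulators of transcription and chromatin. Ebf1, a factor of B cell and adipocyte development, lies at chr11:44617317-45008091 (GRCm38) and was at 160 and 94 in NC and at 725 and 302 in Chaetocin, a log2 change of 1.92 (SE 0.17, limma adjusted p = 0.000613). Both Chaetocin libraries exceeded every library of the other compounds with the same number, of which number 2 reached 157 and number 1 reached 391. Against the mean of the other 9 compounds Ebf1 rose as well (1.76, adjusted p = 5.44e-05, limma). Plagl1, an imprinted zinc finger gene that restrains growth, was at 1664 and 1663 in NC and at 3403 and 3445 in Chaetocin (1.04, SE 0.13, limma adjusted p = 0.011), with a range of 594 to 3351 in the other compounds. It was 1 of 25 imprinted genes tested and the only one called, while 0.203% of all genes tested were called. Zfp638, a zinc finger protein of nuclear speckles, was at 1356 and 880 in NC and at 3892 and 2783 in Chaetocin (1.59, SE 0.29, limma adjusted p = 0.0419). 2810474O19Rik, now named Resf1 and known as a regulator of retroelement silencing, was at 1798 and 888 in NC and at 4789 and 2630 in Chaetocin (1.49, SE 0.24). Zfp182 and Rsf1, the latter a subunit of a nucleosome spacing complex, rose by log2 changes of 1.12 and 1.06.

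A further group of risers serves chromosome structure and RNA decay. Smc3, a core subunit of the cohesin ring that holds sister chromatids together, was at 1908 and 1243 in NC and at 6583 and 3417 in Chaetocin, a log2 change of 1.62 (SE 0.27, limma adjusted p = 0.0397). Sgol2a (now Sgo2a), a shugoshin that protects cohesin at centromeres, was at 1482 and 818 in NC and at 4075 and 2240 in Chaetocin (1.46, SE 0.25, limma adjusted p = 0.0397). Reads at 35.0% of its exon bases could also come from Kctd18 on the other strand, since the kit was not described as stranded. Upf2 and Upf3b, which join in nonsense-mediated decay of messenger RNA, rose by 1.10 (863 and 600 to 2022 and 1178) and 1.02 (502 and 409 to 1117 and 756). Of 15 genes of that pathway, a list made after the values had been seen, these 2 were called, and the median was -0.06. Over all genes tested 0.203% were called. The core cohesin subunit Rad21 was not called, with 19789 and 16839 in NC and 16839 and 17604 in Chaetocin (-0.08, adjusted p = 0.818, limma).

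The remaining named risers share no role. B3gnt7, a glycosyltransferase of keratan sulfate chains, was at 503 and 553 in NC and at 1353 and 1162 in Chaetocin (1.25, SE 0.22, limma adjusted p = 0.0419). Pcmtd1 was at 1714 and 853 in NC and at 4316 and 1960 in Chaetocin (1.27, SE 0.22). Slfn9, of the Schlafen family, was at 690 and 365 in NC and at 2320 and 1358 in Chaetocin (1.82, SE 0.33), and 23.3% of its 31-base stretches also occur in transcripts of other genes. Eea1, a tether of early endosomes, rose by 1.05, and Rbm4b, a splicing factor, by 1.14. NC 1 and NC 2 listed Btla, a receptor of lymphocytes, at 0, and its levels in Chaetocin (38 and 26) were below both DZNep libraries (120 and 83). Btla had a median of 30 in the other compounds, and the change against their mean was 0.30 (adjusted p = 0.821, limma).

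The last risers have no known role in ESCs. A model named after a clone of the RP24 library, with no position in the annotation used here, had the smallest adjusted p of the 35 calls. It was at 40 and 49 in NC and at 503 and 460 in Chaetocin, a log2 change of 3.41 (SE 0.27, limma adjusted p = 0.000255). The other compounds ranged from 16 to 52, so both Chaetocin libraries stood above all other libraries. Gm37470, an unclassified transcript at chr1:139030185-139032982 (GRCm38), had values of 249 and 503 in Chaetocin, while NC and all 18 libraries of the other compounds listed it at 0 (limma adjusted p = 0.00314, no fold given). Gm4631 was at 1504 and 942 in NC and at 7713 and 3759 in Chaetocin (2.18, SE 0.38), and Gm45105, a processed pseudogene, at 104 and 68 in NC and at 247 and 277 in Chaetocin (1.63, SE 0.28). These last genes shared 53.2% and 70.8% of their 31-base stretches with other genes, so their reads may have been divided between copies. Olfr1116, an olfactory receptor, was at 637 and 645 in Chaetocin and at 0 in NC 1 and 2 (limma adjusted p = 0.0496). Its median in the other compounds was 604.5, with both CPTH2 libraries and DZNep 2 at 0, so Chaetocin lay within their range.

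The genes that fell included Tns1 of the adhesion machinery. Tns1 encodes tensin, which ties actin filaments to integrins at focal adhesions. It was at 1251 and 880 in NC and at 338 and 384 in Chaetocin, a log2 change of -1.54 (SE 0.21, limma adjusted p = 0.0138). The other compounds had a median of 893, and of these only IOX1 (309 and 399) was below 500 in both numbers. It was the only gene called of 27 genes for YAP signalling, actin and focal adhesion, whose median was -0.06. Of all genes tested, 0.203% were called and 0.0637% were called lower. Fibroblast markers, which would mark feeder or differentiated cells, summed to 1155 and 2108 in NC and to 344 and 741 in Chaetocin over 10 tested genes of 14 listed. Of the 10, 8 (80.0%) were lower, against 53.9% of all genes tested, 1 was higher and 0 were called. Lum was at 0 in all of these libraries, Postn was at 474 and 559 in NC and at 0 in Chaetocin, and Col3a1 was at 4 and 743 in NC and at 2 and 4 in Chaetocin. Postn was also at 0 in 10 of the 18 libraries of the other compounds, and Col3a1 was at 3 in IOX1 1 and at 622 in IOX1 2. Their part in the level of Tns1 was not tested.

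Several of the other genes that fell encode membrane or signalling proteins. Cacng7, a regulatory subunit of AMPA receptors, was at 726 and 664 in NC and at 191 and 294 in Chaetocin (-1.55, SE 0.21, limma adjusted p = 0.0138), and both values were below the lowest library of the other compounds (306). Cntn3, a neural adhesion molecule, was at 32 and 47 in NC and at 8 and 10 in Chaetocin (-2.0, SE 0.25, limma adjusted p = 0.0105). Slc13a5, the plasma membrane citrate carrier, was at 370 and 293 in NC and at 202 and 129 in Chaetocin (-1.02), and it fell against the other compounds too (-1.36, adjusted p = 0.000558, limma). Mfng, a modifier of Notch receptors, was at 243 and 263 in NC and at 86 and 148 in Chaetocin (-1.16). NC was its highest group in both numbers, and the other compounds ranged from 42 to 255 with a median of 127. Against their mean, Mfng in Chaetocin differed by only -0.11 (adjusted p = 0.705, limma). Cpne5, a calcium-dependent lipid-binding protein, was at 632 and 676 in NC and at 274 and 379 in Chaetocin (-1.02), with a range of 243 to 898 in the other compounds. Hdgfrp3 (now Hdgfl3), a relative of hepatoma-derived growth factor, was at 358 and 334 in NC and at 164 and 164 in Chaetocin (-1.07).

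Further genes that fell were 1700013H16Rik (-1.25), the lincRNA 1700018B24Rik (-1.14) and mt-Rnr1. The last is the small ribosomal RNA of the mitochondrion, at 14995 and 24739 in NC and at 7348 and 10793 in Chaetocin (-1.11, SE 0.16, limma adjusted p = 0.0166). NC 2, IOX1 2 and MS023 2 shared the highest value of all libraries, and Bromosporine 1 (7063) and UNC0379 1 (7229) were as low as Chaetocin 1. Of 15 mitochondrial transcripts, a list made after the values had been seen, it was the only one called, and their median was 0.00. The share called over all genes tested was 0.203%. The plot of called genes sets these values beside those of the other compounds.

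**Figure D2:**
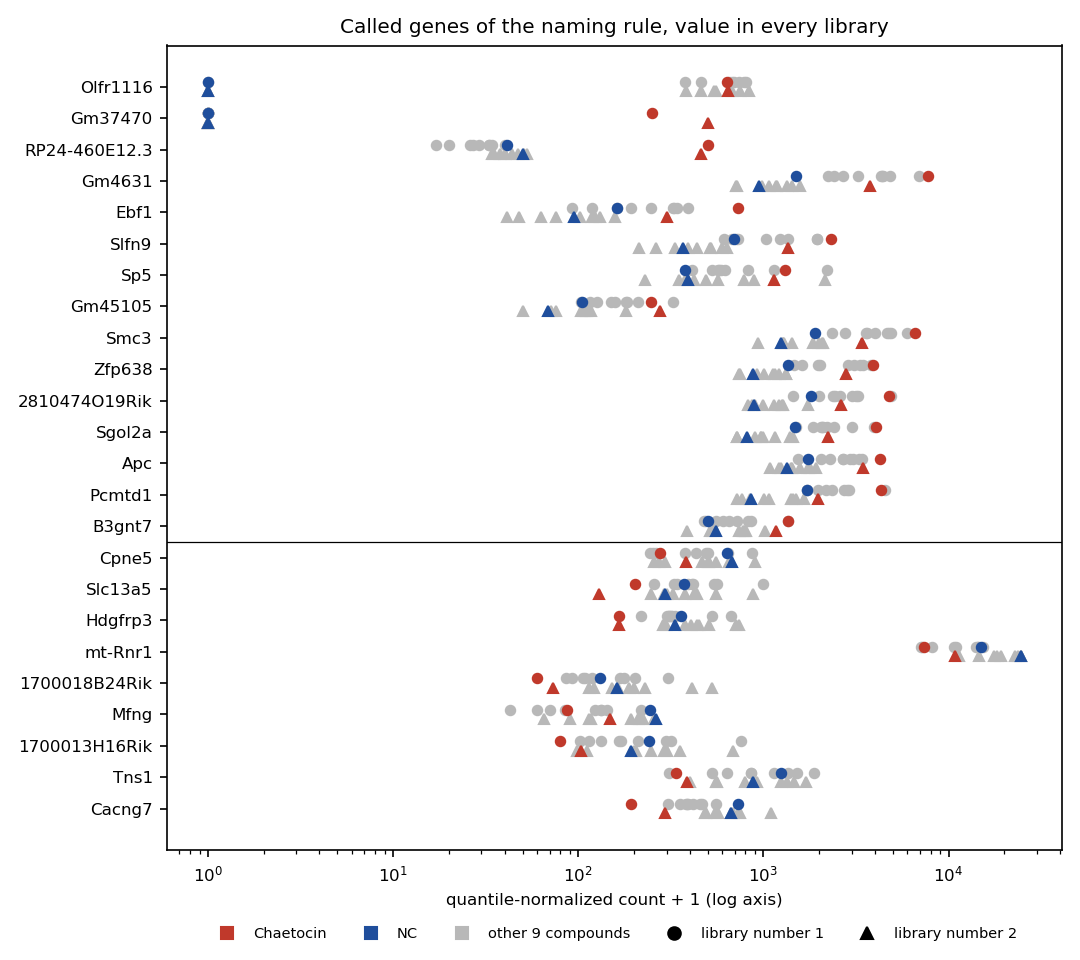
Quantile-normalized counts plus 1 on a log axis for called genes that the naming rule chose, 15 that rose (above the line) and 9 that fell (below it). Chaetocin (red) lies to the right of NC (blue) for the first 15 and to the left for the last 9, while the range of the other compounds (grey) takes in a Chaetocin value for most genes but not for Apc, Gm37470, the RP24 clone model, Cacng7, Slc13a5, Hdgfrp3 or 1700018B24Rik.

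The start sites of Sp5, the riser closest to WNT signalling, and of Tns1, the faller of the adhesion machinery, are shown because these genes lead the described groups in each direction. Each sequence runs from 250 bases before to 50 bases after the start (RefSeq, GRCm38.p6), at chr2:70474673-70474972 on the plus strand and chr1:74124499-74124798 on the minus strand. Capitals mark the core of the hypoxia response element (ACGTG, either strand).
Sp5: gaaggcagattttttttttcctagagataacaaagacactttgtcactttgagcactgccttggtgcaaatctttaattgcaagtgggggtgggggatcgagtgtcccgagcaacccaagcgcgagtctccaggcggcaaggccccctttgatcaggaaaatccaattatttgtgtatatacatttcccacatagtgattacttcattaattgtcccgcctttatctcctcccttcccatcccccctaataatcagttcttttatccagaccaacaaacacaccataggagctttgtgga
Tns1: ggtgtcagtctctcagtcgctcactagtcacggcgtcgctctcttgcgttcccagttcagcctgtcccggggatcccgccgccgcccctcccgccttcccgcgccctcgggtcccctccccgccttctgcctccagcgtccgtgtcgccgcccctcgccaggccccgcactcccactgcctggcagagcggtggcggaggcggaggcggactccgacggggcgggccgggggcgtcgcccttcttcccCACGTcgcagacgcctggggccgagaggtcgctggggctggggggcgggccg
GC content was 45% in the first and 75.7% in the second. A promoter sequence was matched for 16 of the 24 risers and 7 of the 11 that fell. Of 8 motifs searched on both strands, Sp5 held 0 in this window and Tns1 the hypoxia core alone. The hypoxia core occurred in 18.8% of the 16, in 28.6% of the 7 and in 24.6% of the 11979 promoters of tested genes. The metal response core (TGCNCNC) lay farthest from the share of all promoters (58.7%), with 31.2% of the 16 and 71.4% of the 7. The median GC content of these promoters was 55.17%, 62% and 60.33% for the 16, the 7 and all. The antioxidant core (TGACNNNGC) occurred in 12.5%, 0% and 14.1% in the same order, and the TEAD motif (GGAATG) in 12.5%, 28.6% and 12.4%. The amino acid response (TGATGNAAN) and AP-1 (TGANTCA) motifs each occurred in 6.25% of the 16 and 0% of the 7, against 2.58% and 5.26% of all. The heat shock (GAANNTTC) and CRE (TGACGTCA) motifs occurred in 0% of both groups, against 5.9% and 3% of all. These are matches of letters and not sites of binding.

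Many of the risers also differed by library number. Smc3, Sgol2a, Apc, Ebf1, Slfn9, Gm4631, Zfp638, 2810474O19Rik, Pcmtd1, Upf2 and Upf3b were higher in library 1 than in library 2 in 11 of 11 groups. For Smc3 the median log2 difference between the numbers was 1.40 over the groups other than Chaetocin and 0.95 in Chaetocin. Chaetocin 2 (3417) was below IOX1 1 (5970), but it exceeded every other library numbered 2 (highest 2107). Taking both numbers, Chaetocin was the highest of the 11 groups for 12 of the 24 risers and for 1.49% of all genes tested. It was the lowest for 5 of the 11 that fell, against 1.45% of all genes tested. The called genes were selected on these same Chaetocin values, so higher shares among them are built in. Chaetocin was neither the most nor the least separate group, since DZNep was highest in both numbers for 2223 genes, Chaetocin for 258, NC for 70 and Garcinol for 56.

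The same shape was seen in a set of genes for mitosis and genome upkeep that missed the threshold against NC and were picked after their values had been seen. Mki67, a coat protein of mitotic chromosomes and the usual marker of cycling cells, was at 1100 and 645 in NC and at 4894 and 2910 in Chaetocin (log2 change 2.16, SE 0.47, limma adjusted p = 0.0589). Among libraries numbered 2, the other compounds reached 940 at most, while IOX1 1 was at 4576. Cenpe, a kinetochore motor, was at 455 and 251 in NC and at 1899 and 1243 in Chaetocin (2.18, adjusted p = 0.051, limma), and Cenpf was at 604 and 397 in NC and at 3036 and 1823 in Chaetocin (2.26, adjusted p = 0.0593, limma). Smc4, of condensin, was at 5843 and 3777 in NC and at 15363 and 9022 in Chaetocin (1.33, adjusted p = 0.0527, limma). Of 33 genes for cohesin, condensin and kinetochores, a list made after the values had been seen, 25 (75.8%) were higher, 16 (48.5%) at an unadjusted p under 0.05, and 2 were called. Over all genes tested these shares were 44.9% and 7.21%, with 0.203% called. Their median log2 change was 0.26, and 6 of the 33 were called higher against the other 9 compounds. By contrast the planned list of 29 genes for the cell cycle and mitosis, which includes Mki67, had 0 calls and a median of -0.08. Of the 29, 22 (75.9%) were lower and 7 (24.1%) higher, against 53.9% and 44.9% of all genes tested.

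Atrx, a remodeller that loads histone H3.3 on heterochromatin, was at 1744 and 874 in NC and at 7978 and 4528 in Chaetocin (2.28, SE 0.48, limma adjusted p = 0.0561). IOX1 1 was at 7894, and the other libraries numbered 2 were at 1650 or less. Rif1, which times replication and guards heterochromatin in ESCs, was at 3816 and 1761 in NC and at 14112 and 8842 in Chaetocin (2.11, adjusted p = 0.0659, limma) and was called only against the other compounds. The plot of genes in every library shows Chaetocin 2 well above the other libraries numbered 2. Chaetocin 1 was above every other library numbered 1 except for Cenpf, but IOX1 1 came close for Sgol2a, Mki67 and Atrx. The plot is titled for long genes, but Zfp990 (3044 bases) is shorter than the median of all genes tested (3142).

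**Figure D3:**
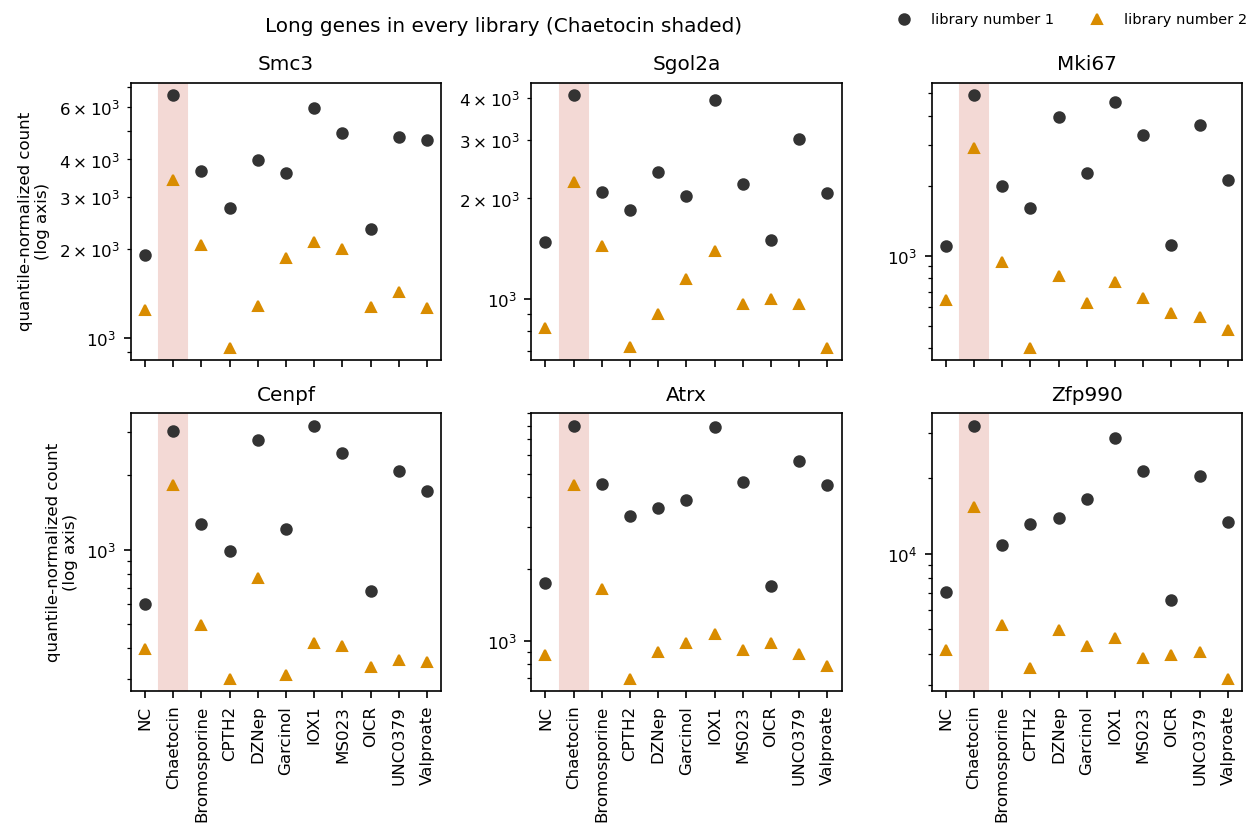
Quantile-normalized count (log axis) of 6 genes in all 22 libraries, with number 1 as circles and number 2 as triangles and Chaetocin shaded. Number 1 lies above number 2 in every group, and Chaetocin 2 lies above all other libraries numbered 2, while IOX1 1 comes close to Chaetocin 1 for Sgol2a, Mki67 and Atrx and exceeds it for Cenpf.

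Many of the genes that rose had long and AT-rich transcripts, a description with no test. The median length of the longest transcript was 5232 bases for called risers (23 of 24 with a value), 2212 for genes that fell and 3142 for all genes tested. GC content had a median of 41.8%, 50.0% and 48.7% in the same order. Transcripts over 5000 bases made up 56.5% of risers and 20.4% of all genes tested. The 1317 genes over 5000 bases and under 45% GC had a median log2 change of 0.05, and 101 of them (7.67%) were over 2-fold higher, against 687 (3.98%) of all genes tested, while 31 (2.35%) were over 2-fold lower, against 577 (3.34%). The same median was 0.09 for IOX1 and 0.06 for UNC0379. With the trend on GC content and length removed from each library, a step chosen after seeing the data, 84 genes were called, 72 higher and 12 lower, and 31 of the 35 were among them.

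**Figure D4:**
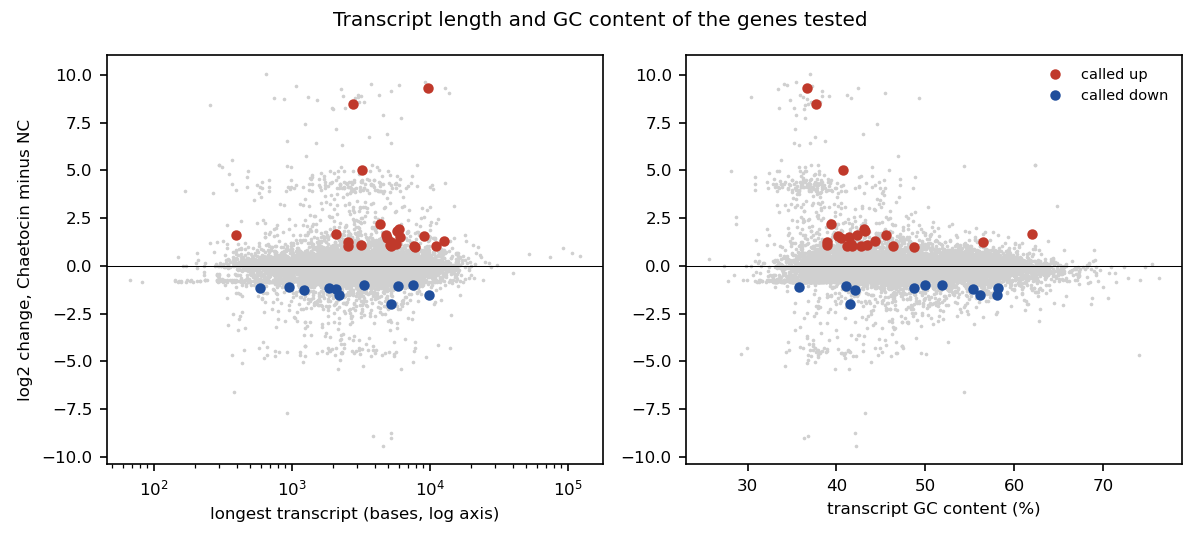
Log2 change between Chaetocin and NC against the length of the longest transcript (left, log axis, bases) and its GC content (right, %), with called risers in red and called genes that fell in blue. Of the risers 56.5% are longer than 5000 bases and 78.3% have a GC content under 45%, among many grey genes of like length and GC content with little change.

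Against the mean of the other 9 compounds, 180 genes were called, which is 1.04% of those tested, with 102 higher and 78 lower. Without the block this count was 22. The Chaetocin libraries serve in both comparisons, so these are not independent. Of the 35 genes called against NC, 16 were called here too (45.7% of the 35 and 8.89% of the 180). The 9 shared risers were the RP24 clone model, Gm37470, Ebf1, Slfn9, Gm4631, Gm45105, Zfp638, 2810474O19Rik and Sgol2a. The 7 shared genes that fell were Cntn3, Cacng7, Tns1, Slc13a5, Hdgfrp3, 1700013H16Rik and 1700018B24Rik.

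Some genes differed from the other compounds more than from NC, and these examples were picked after their values had been seen. Lefty1, a secreted inhibitor that Nodal signalling induces, was at 669 and 1001 in NC and at 1270 and 2321 in Chaetocin (1.07, adjusted p = 0.186, limma), and rose against the other compounds (2.02, adjusted p = 0.00495, limma). Lefty2 was at 1761 and 3240 in NC and at 3692 and 4348 in Chaetocin (0.75) and rose against the others by 1.60 (adjusted p = 0.0194, limma). The libraries of the other compounds ranged from 48 to 1407 for Lefty1 and from 175 to 4486 for Lefty2. Both UNC0379 libraries (4486 and 4486) were above Chaetocin for Lefty2, and IOX1 2 (1407) was above Chaetocin 1 for Lefty1. For both genes NC lay between Chaetocin and the mean of the other compounds. Of 14 Nodal pathway genes, a list also made after the values had been seen, 0 were called against NC (0.203% over all genes tested). The median log2 change of the 14 was 0.08.

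A stretch of zinc finger genes at chr4:145510759-147642513 (GRCm38) behaved alike. Its bounds are the start of Zfp990 and the end of Zfp979, picked after their values had been seen, so the counts include them by construction. Of its 40 genes tested, 38 were higher in Chaetocin than in NC and 17 over 2-fold higher, with a median log2 change of 0.89. Over all genes tested 44.9% were higher and 3.98% over 2-fold higher. In the stretch 0 were called against NC and 7 against the other compounds (Rex2, Zfp600, Zfp978, Zfp979, Zfp980, Zfp981 and Zfp990). Zfp990 was at 7009 and 4163 in NC and at 32076 and 15363 in Chaetocin (adjusted p = 0.0561, limma). These genes share from 31.9% to 95.4% of their 31-base stretches with other genes, so reads may be divided between neighbours, and they are not independent of each other. The median over all 352 tested genes named Zfp was 0.16. Of these, 254 (72.2%) were higher and 2 were called, against 44.9% and 0.203% of all genes tested. Rn7s1, a copy of the 7SL RNA of the signal recognition particle, was at 254 and 23 in NC and at 3251 and 2761 in Chaetocin (adjusted p = 0.0862, limma). OICR 1 was at 2742, and 100% of the 31-base stretches of Rn7s1 occur in transcripts of other genes, with Rn7s2 sharing the most.

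Genes of the heterochromatin machinery and of redox defence, the systems Chaetocin is known for, gave 0 calls against NC. Only 0.203% of all genes tested were called, so a list of this size would seldom hold a call. Of 30 genes for H3K9 methylation and heterochromatin, 11 (36.7%) were higher and 19 (63.3%) lower, against 44.9% and 53.9% of all genes tested. The median log2 change of the 30 was -0.06. At an unadjusted p under 0.05, 4 of the 30 (13.3%) were higher and 3 were lower. Over all genes tested, 7.21% were higher and 11.1% lower at that threshold. Atrx, described above, is in this list, with a log2 change of 2.28 against NC (limma adjusted p = 0.0561). Of the 30, Atrx was the only one called against the other compounds (1.60, adjusted p = 0.0255, limma). Ehmt2, the H3K9 dimethylase G9a, was at 7334 and 6532 in NC and at 5833 and 6574 in Chaetocin (-0.16, adjusted p = 0.305, limma), and Setdb1 had a log2 change of 0.02 (adjusted p = 0.966, limma). Txnrd1, cytosolic thioredoxin reductase, was at 8862 and 9106 in NC and at 10812 and 10216 in Chaetocin (0.23, adjusted p = 0.462, limma). The 29 genes of the thioredoxin and glutathione system had a median of -0.06. Among 24 targets of NRF2, the factor that answers oxidants, the median was 0.09. Nqo1, a quinone reductase in that list, was at 728 and 872 in NC and at 1246 and 1262 in Chaetocin (0.65, adjusted p = 0.136, limma), below both IOX1 libraries (3870 and 3240). Hmox1, heme oxygenase, was at 1699 and 1685 in NC and at 1464 and 1673 in Chaetocin (-0.11, adjusted p = 0.693, limma).

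Other stress responses also gave 0 calls, which says little for short lists when 0.203% of all genes tested were called. Heat shock genes (20) had a median of 0.00, endoplasmic reticulum chaperones (20) of 0.01, p53 targets (20) of 0.02 and metallothionein and zinc genes (10) of 0.08. Mt2, a metallothionein, was at 7099 and 9399 in NC and at 14672 and 10469 in Chaetocin (0.60, adjusted p = 0.27, limma). In the integrated stress response, which ATF4 drives when amino acids or translation fail, 21 of 21 genes were lower in Chaetocin. The median log2 change of the 21 was -0.31, and 7 of them (33.3%) were lower at an unadjusted p under 0.05. Over all genes tested 53.9% were lower, 11.1% at an unadjusted p under 0.05. Chac1, which degrades glutathione, was at 1526 and 1195 in NC and at 789 and 847 in Chaetocin (adjusted p = 0.475, limma), and Phgdh, of serine synthesis, at 7894 and 6544 in NC and at 5055 and 5094 in Chaetocin (adjusted p = 0.0828, limma). Against the other compounds the median of these 21 genes was 0.04. Genes of hypoxia and glycolysis (25) had a median of -0.23, made of -0.62 within number 1 and 0.05 within number 2. Cholesterol synthesis (23) stood at -0.01, interferon response (17) at 0.07, core histones (43) at -0.06 and extracellular matrix (26) at -0.24.

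Germline and 2-cell genes, which heterochromatin is known to silence, gave 0 calls too, and most of them had lower values. The share called over all genes tested was 0.203%. Of 19 tested genes of the 2-cell stage, the embryonic state that rare ESCs enter, 17 (89.5%) were lower and 1 higher, with a median of -1.16. Over all genes tested 53.9% were lower. The sums of the 19 genes were 1295 and 722 in NC and 1596 and 519 in Chaetocin and so overlapped. The member that was higher, Gata2, was at 782 and 280 in NC and at 1435 and 257 in Chaetocin and made up most of the sum in Chaetocin 1. Zscan4c was at 64 and 66 in NC and at 0 and 28 in Chaetocin (adjusted p = 0.0828, limma), and 91.5% of its 31-base stretches occur in other genes. Of 29 germline genes 23 (79.3%) were lower, 14 (48.3%) at an unadjusted p under 0.05, against 53.9% and 11.1% of all genes tested, and the median was -0.36. Mael, of the piRNA pathway, was at 284 and 377 in NC and at 145 and 151 in Chaetocin (-1.14, adjusted p = 0.0555, limma), while Tex15, of the same pathway, was at 103 and 84 in NC and at 455 and 183 in Chaetocin (1.62). Of 322 olfactory and vomeronasal receptor genes, which ESCs hardly use, 223 (69.3%) were lower, against 53.9% of all genes tested. The median of the 322 was -0.60, with Olfr1116 as the only call. Many values in these lists were low or 0, where a log2 change depends most on the added 1.

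Imprinted genes (25) had a median of 0.13 and 1 call, Plagl1, while 0.203% of all genes tested were called. Meg3, a maternally expressed long RNA, was at 11215 and 5094 in NC and at 24752 and 8544 in Chaetocin (adjusted p = 0.0589, limma), and Peg3 at 1489 and 1270 in NC and at 2931 and 2041 in Chaetocin (adjusted p = 0.0828, limma). Markers of other cell types gave 0 calls in all 4 lists tested. Primitive endoderm markers (14) summed to 52967 and 32536 in NC and to 68562 and 33128 in Chaetocin, trophoblast markers (12) to 4591 and 4007 in NC and to 4072 and 4145 in Chaetocin, and mesoderm and ectoderm markers (15) to 5807 and 7955 in NC and to 4306 and 7470 in Chaetocin. Apart from the fibroblast list given with Tns1, these sums overlapped between the groups. The plot of list medians shows how far the numbers agreed for each list.

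**Figure D5:**
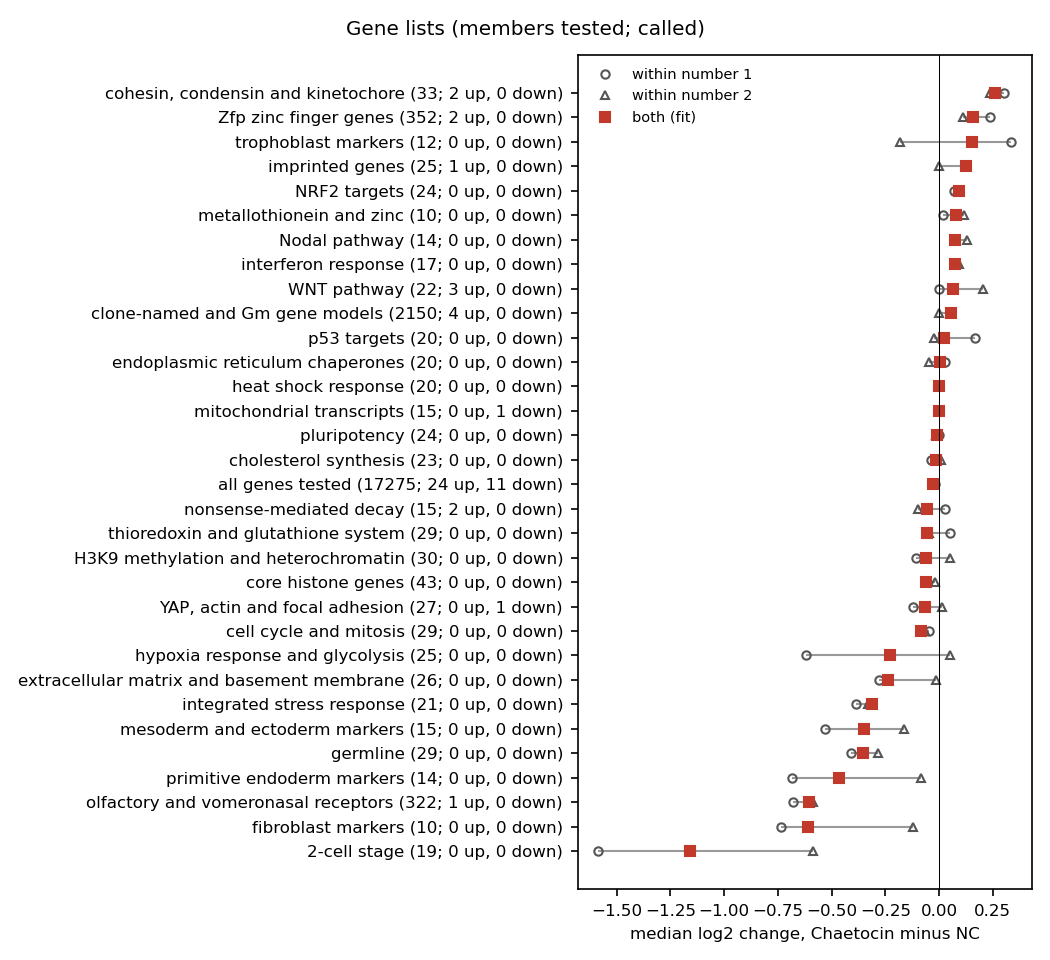
Median log2 change between Chaetocin and NC over the tested members of each gene list, with the value within number 1 (circle), within number 2 (triangle) and from the fit (square), and the number tested and called in brackets. Most medians lie near that of all 17275 genes (-0.03), cohesin, condensin and kinetochore genes are at 0.26 with both numbers close, and the 2-cell list is at -1.16 with the numbers apart.

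Some genes were listed at 0 throughout 1 group and clearly above it in the other. There were 33 genes at 0 in NC 1 and 2 and at 100 or more in Chaetocin 1 and 2, and 4 with the converse (9330121K16Rik, Lrriq1, Nkain3 and Postn). Postn, given above among the fibroblast markers, is a matrix protein. Of these 37 genes Gm37470 and Olfr1116 were called. All but Gm37470 were listed at 0 in 2 to 16 of the 18 libraries of the other compounds, and a 0 can stem from the counting, so no fold is given.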

How the data were processed

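RNA of E14 ESCs was measured in 22 libraries. The deposited values are scores, here read counts that the authors normalized with EDASeq at its full setting and rounded to whole numbers. Per the labels, processing used bcl2fastq, Bowtie2 2.2.5, RSEM and the build mm10. The median (409) and the largest value (221616) were the same in every library. Raw counts and depth were not at hand, so the DESeq2 test of the authors was not run and no interval that needs depth is given. A table of the authors' group means was not used. Groups came from the sample titles, and 0 columns matched no sample.

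Values were analysed as log2(value + 1) with limma 3.58.1 in R 4.3.3. A model of 11 group means with library number as a block was fitted to all 22 libraries (10 residual degrees of freedom, trend on mean expression) over genes at 10 or more in at least 2 libraries. P-values are two-sided and adjusted by Benjamini-Hochberg over all genes tested. Calls needed an adjusted p under 0.05 together with a fold over 2, and "rose" or "fell" is used of called genes. The second contrast set Chaetocin against the mean of the other 9 compounds. The fit was tested on simulated data. The block is part of how the comparison is defined. The naming rule took the 15 called risers and the 10 called fallers with the greatest change among those with no overlap between the groups and a mean of 100 or more in the higher group. A gene that the rule picked is withheld and not reported. The comparison and the gene lists were chosen with earlier results of these data known. Annotation came from GENCODE M21 (GRCm38), in which 18150 of 18487 names were found, 204 of them by a RefSeq synonym. Alternatives were another pseudocount, filter, scaling, variance and sample set, no block, each library left out and removal of the GC and length trend.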

Additional observations from a re-analysis of the deposited data

How the results depend on the processing

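Against NC, 35 calls became 3 with no replicate block (815 genes at an unadjusted p under 0.05), 67 with genes at 100 or more in at least 2 libraries, 73 with robust variances, 180 with the mean of the other 9 compounds as the reference and 84 with the GC and length trend removed (chosen after seeing the data). A limma fit of only the Chaetocin and NC libraries gave 0 calls with the block (1916 genes at an unadjusted p under 0.05) and 63 without it, 3 of them among the 35. A pseudocount of 10 gave 28 calls, no filter 33 and median ratios 46. Leaving out 1 library gave 16 to 176 calls: 75 without Chaetocin 1, 17 without Chaetocin 2, 16 without NC 1 and 176 without NC 2, of which 21, 5, 3 and 32 were among the 35. Against the other compounds, 180 calls became 22 with no replicate block and 55 to 113 with 1 library left out. All 35 genes kept their direction in every setting in which they were tested.

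Deviations of same-numbered libraries correlated at 0.0535 to 0.298 over 55 pairs of groups, 51 of them over 0.1, and at 0.119 between Chaetocin and NC, so not every pair passed 0.1. Number 2 lay on the same side of number 1 in 11 of 11 groups on the first and on the second principal component, so a difference by number was shared by the groups. Olfr1116 lost its call in 10 of 14 settings and the RP24 clone model in 2 of 13.

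Log2 changes that turned sign were all of uncalled genes. With the other 9 compounds as the reference they were -0.0411 for Suv39h1, -0.0862 for Setdb1, -0.0895 for Sox2, -0.0345 for Mt2, 0.0408 for Atf4 and 0.487 for Vegfa. With 1 library left out they ranged from -0.0331 to 0.103 for Suv39h1, from -0.309 to 0.00911 for Suv39h2, from -0.0722 to 0.106 for Setdb1, from -0.0461 to 0.00398 for Pou5f1 and from -0.426 to 0.00646 for Vegfa. Pou5f1 was at 0.0186 with median ratios and at 0.0160 with the GC and length trend removed. The cause was not tested. Depth, unknown here, limits what low values can show.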
